A study of Mus musculus with 97 samples.

Results

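The 10 genes described here encode the machinery with which colonocytes move sodium and chloride: Scnn1a, Scnn1b, Scnn1g, Fxyd4, Nr3c2, Slc9a3, Slc26a3, Cftr, Slc12a2 and Atp12a. In the order given, their Ensembl identifiers are ENSMUSG00000030340, ENSMUSG00000030873, ENSMUSG00000000216, ENSMUSG00000004988, ENSMUSG00000031618, ENSMUSG00000036123, ENSMUSG00000001225, ENSMUSG00000041301, ENSMUSG00000024597 and ENSMUSG00000022229. They were taken by name from a table of TPM (transcript abundance scaled for transcript length and to a fixed total per library) for 20457 genes in mouse whole colon, and all 10 passed the filter on low values that left 17083 genes for testing. The table holds 97 libraries in 18 groups. C57BL6/J mice aged 8 to 12 weeks received vancomycin, neomycin, ampicillin, metronidazole, the mix of all 4, or PBS as the control, by oral gavage (PO), intraperitoneal injection (IP) or intravenous injection (IV). A dose was 2.5 mg in 100 µl of PBS, or 100 µl of PBS alone for controls, with 2 doses a day for 3 days, a last dose on day 4, and tissue taken 4 hours later. There were 6 libraries in each of 11 groups, 5 in each of the IV groups of vancomycin, neomycin and PBS, and 4 in Vancomycin-IP, PBS-IP and both injected metronidazole groups. Each antibiotic group was compared with the PBS group of its route, so antibiotics given by the same route share their controls. Whether each replicate was its own animal is not in the labels, and the p-values therefore reflect only sample-to-sample spread, which may be technical.

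The colon absorbs sodium in 2 ways. Along its length the sodium-proton exchanger NHE3 (Slc9a3) works beside the chloride-bicarbonate exchanger DRA (Slc26a3), and this pair takes up salt without net charge. In the distal colon the epithelial sodium channel ENaC carries sodium alone. ENaC is built of an alpha (Scnn1a), a beta (Scnn1b) and a gamma subunit (Scnn1g), and it is known as a target of aldosterone, which acts through the mineralocorticoid receptor (Nr3c2). Fxyd4, also called CHIF, is a modulator of the sodium pump induced by aldosterone, and Atp12a is the colonic proton-potassium pump of the distal colon. Chloride is secreted in the other direction: the cotransporter NKCC1 (Slc12a2) loads it at the basal side and the channel CFTR (Cftr) releases it into the lumen. Posterior Hox genes, among them Hoxa13, Hoxb13 and Hoxd13, are switched on toward the distal end of the gut, and their mean level gives each library a coordinate.

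Promoter windows of RefSeq (build GRCm38.p6) were used for 7 of the 10 members, each 300 bases long with 250 before the start of the gene. Scnn1a, Slc12a2 and Atp12a were not searched. The bases upstream of the start are printed for Scnn1b, Scnn1g and Fxyd4, which moved together over the libraries, and for Slc9a3, the member with a negative slope on the Hox score. Scnn1g and Scnn1b lie on the same strand of chromosome 7 with starts 131 kb apart. Capitals mark a match to an E-box, CACGTG.
Scnn1g: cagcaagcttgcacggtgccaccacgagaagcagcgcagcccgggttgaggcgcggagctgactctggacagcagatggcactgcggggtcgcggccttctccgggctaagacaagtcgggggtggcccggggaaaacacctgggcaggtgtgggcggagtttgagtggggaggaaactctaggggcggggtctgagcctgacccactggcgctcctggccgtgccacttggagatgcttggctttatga
Scnn1b: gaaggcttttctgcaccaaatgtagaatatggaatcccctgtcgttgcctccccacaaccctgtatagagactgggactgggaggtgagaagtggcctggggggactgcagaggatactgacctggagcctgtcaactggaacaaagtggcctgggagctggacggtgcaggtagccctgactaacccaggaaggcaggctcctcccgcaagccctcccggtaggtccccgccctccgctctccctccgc
Fxyd4: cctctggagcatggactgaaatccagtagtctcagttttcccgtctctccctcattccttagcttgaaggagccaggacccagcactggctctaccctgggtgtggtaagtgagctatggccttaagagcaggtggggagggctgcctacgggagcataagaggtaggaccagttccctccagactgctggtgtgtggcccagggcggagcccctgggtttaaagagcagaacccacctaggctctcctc
Slc9a3: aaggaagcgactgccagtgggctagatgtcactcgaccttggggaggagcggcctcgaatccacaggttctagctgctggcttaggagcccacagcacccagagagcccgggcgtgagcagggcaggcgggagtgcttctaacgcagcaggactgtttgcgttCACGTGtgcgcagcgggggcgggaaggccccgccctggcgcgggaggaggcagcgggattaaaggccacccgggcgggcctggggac
The whole windows lie at chr7:121734229-121734528 (plus strand), chr7:121864788-121865087 (plus strand), chr6:117937286-117937585 (minus strand) and chr13:74121163-74121462 (plus strand), in the order printed. Both strands were searched for the steroid receptor half-site AGAACA, the posterior Hox motif TTTACGA, its variant TTTATTG, the Cdx motif TTTATGG and the E-box CACGTG. The Cdx motif and the Hox variant begin with the same letters, and no matches overlapped in the members. In all 32851 windows of this length the half-site was found in 19%, the Hox motif in 0.597%, its variant in 4.6%, the Cdx motif in 2.75% and the E-box in 7.15%. Among the 7 members the E-box was found once, in Slc9a3, and the half-site once, in Slc26a3 at 41 bases past the start. No Hox or Cdx motif was found in the 7 windows, which says only that these letters were not in them. The E-box of Slc9a3 starts 87 bases before the start of the gene.

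The members differed widely in how far they ranged over the 97 libraries. TPM is a level per transcript length, so levels can be set side by side. Slc26a3 was the most abundant, with a lowest, median and highest level of 255, 1029 and 3962 TPM. Slc9a3 ranged from 13.3 to 910 TPM (median 196), Slc12a2 from 54.2 to 388 (median 216), Nr3c2 from 12.4 to 149 (median 63.1), Scnn1a from 6.11 to 183 (median 53.9) and Cftr from 2.14 to 106 (median 46.8). The widest ranges were those of Atp12a, Fxyd4 and Scnn1g. Atp12a ran from 0.671 to 1680 TPM around a median of 36.5, and Fxyd4 from 0.0891 to 1109 around a median of 3.03. Scnn1g was under 1 TPM in 42 libraries and listed at 0 in 4 of them, yet reached 161 TPM in 1 library. Scnn1b ranged from 0.190 to 97.6 TPM with a median of 7.01. The 3 ENaC subunits were far from equal: Scnn1b was below Scnn1a in all 97 libraries, with a median ratio of 0.177, and Scnn1g was below Scnn1b in all but 5, with a median ratio of 0.247.

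For each member the 18 group means were put in order, and no neighbours in that order had ranges that did not overlap (0 of 17 neighbour pairs for each gene). Neighbours have the closest means, so overlap was likely from the start and is no result about the members. The share over all tested genes was not counted. Groups accounted for 15.9% (Atp12a) to 25.9% (Slc9a3) of a member's variance in log2(TPM + 1), so most of it lay between libraries of the same group. With 18 groups a part of this share arises by chance alone. For Atp12a the SD within groups was 3.25 against 3.22 over all libraries, and for Slc9a3 it was 1.38 against 1.45. A test of any difference among the 18 groups called none of the 10 members (limma, adjusted p from 0.164 to 0.633 over all tested genes), where it called 13.1% of all tested genes.

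The posterior Hox score was the mean log2(TPM + 1) of Hoxa13, Hoxb13, Hoxd11, Hoxd12 and Hoxd13. It ran without a break from 0.801 to 6.15, and the largest step between neighbouring libraries was 0.228. The labels do not say which stretch of colon a library holds. The score was not related to the epithelium score, the mean of 13 epithelial markers that were above 1 TPM in every library (r = -0.105, rho = -0.0985, permutation p = 0.37 and 0.376). In these bulk samples, fewer cells of a type and less RNA per cell cannot be told apart.

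In the control libraries the Hox score already went with large differences in these genes. In PBS-IP the Hox scores of replicates 1 to 4 were 5.15, 5.01, 1.36 and 5.27, and Atp12a stood at 367, 360, 2.08 and 412 TPM. Fxyd4 in the same 4 libraries was 150, 56.1, 0.813 and 155 TPM, and Scnn1g was 15.1, 13.6, 0.532 and 11.7 TPM. Slc9a3 ran the other way, with 182, 205, 459 and 214 TPM. Replicate 3, the library of low Hox score, was thus lowest in the first 3 genes and highest in Slc9a3. That 1 library also had 25.1% of its TPM in mitochondrial genes, against 10.9%, 7.77% and 8.77% in replicates 1, 2 and 4. Its column, like that of replicate 4, stands after the main run of the table. In PBS-IV the Hox scores of replicates 1 to 5 were 1.61, 5.03, 1.10, 3.99 and 4.37, and Atp12a stood at 2.73, 503, 0.806, 6.31 and 478 TPM. Replicate 4 of that group had the lowest epithelium score of the study, 5.76.

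**Figure D1:**
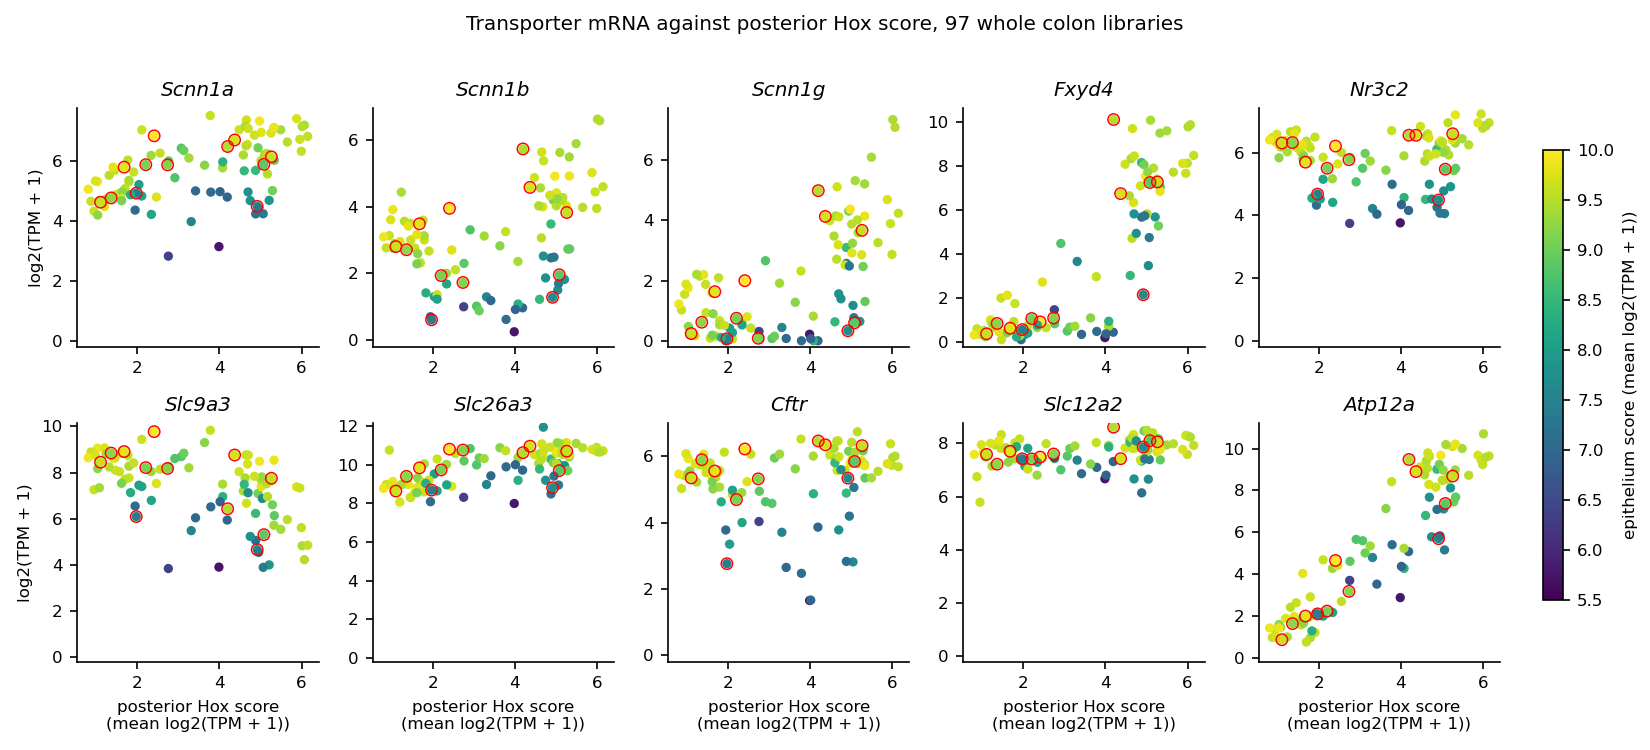
Each panel plots log2(TPM + 1) of 1 member against the posterior Hox score, with 1 point per library (97) coloured by epithelium score and red rings on the 12 libraries whose columns stand after the main run of the table. Atp12a and Fxyd4 climb from near 0 to their highest levels, Slc9a3 falls, and Nr3c2 and Cftr split by colour rather than by Hox score.

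Relations were taken over all 97 libraries after each group's mean was subtracted, so that no difference between treatments entered them. With rising Hox score 7 members rose and Slc9a3 fell (limma slope, adjusted over all tested genes), against 47.9% of all tested genes called in either direction. Atp12a rose by 1.85 ± 0.0736 log2 units per unit of Hox score (slope ± SE, adjusted p = 1.70e-36), a slope whose size placed it in the top 0.0117% of tested genes. Its correlation was r = 0.942 and rho = 0.932 (permutation p = 1e-05 for both, the smallest that 100000 permutations can give). Fxyd4 rose by 1.72 ± 0.129 (adjusted p = 5.21e-20, top 0.0351%), with r = 0.828 and rho = 0.825 (permutation p = 1e-05 for both).

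Of the ENaC subunits, gamma had the largest slope. Scnn1g rose by 0.76 ± 0.0866 log2 units per unit of Hox score (limma adjusted p = 5.20e-12), with r = 0.7 and rho = 0.704 (permutation p = 1e-05 for both). Scnn1b rose by 0.37 ± 0.0868 (limma adjusted p = 0.000257), with r = 0.428 and rho = 0.429 (permutation p = 0.00016 and 0.00012). Scnn1a rose by 0.34 ± 0.0562 (limma adjusted p = 3.55e-07), with r = 0.561 and rho = 0.564 (permutation p = 1e-05 for both). Low TPM values flatten the slope of Scnn1g on this scale, since 1 was added before the log.

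The 2 exchangers of electroneutral salt uptake parted. Slc26a3 rose by 0.37 ± 0.0459 (limma adjusted p = 8.12e-11), with r = 0.675 and rho = 0.665 (permutation p = 1e-05 for both). Slc9a3 had a slope of -0.45 ± 0.0777 (limma adjusted p = 1.17e-06), with r = -0.541 and rho = -0.539 (permutation p = 1e-05 for both). The extremes of the score show this. In Neomycin-PO replicate 4 and Vancomycin-PO replicate 6 (Hox scores 6.15 and 6.07, the highest) Slc9a3 was at 27.8 and 17.7 TPM, and Atp12a at 803 and 768 TPM. In the 2 of lowest score, Mix-IP replicates 5 and 4 (0.801 and 0.866), Slc9a3 was at 399 and 473 TPM, and Atp12a at 1.67 and 0.941 TPM. Atp12a was the more abundant of the pair in 41 of 97 libraries.

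The secretory genes and the receptor had the smallest slopes. Slc12a2 rose by 0.08 ± 0.0319 (limma adjusted p = 0.0315), with r = 0.272 and rho = 0.261 (permutation p = 0.0147 and 0.0198). Without the 12 libraries whose columns follow the main run of the table, the correlation of Slc12a2 was 0.226 (permutation p = 0.0672). Cftr had a slope of 0.09 ± 0.0689 (limma adjusted p = 0.297), with r = 0.141 and rho = 0.25 (permutation p = 0.2 and 0.0226). Nr3c2 had a slope of 0.04 ± 0.0559 (limma adjusted p = 0.549), with r = 0.0852 and rho = 0.112 (permutation p = 0.46 and 0.327). Leaving out the 2 libraries farthest from the median Hox score gave r = 0.939 for Atp12a, 0.826 for Fxyd4, 0.691 for Scnn1g, 0.66 for Slc26a3, 0.55 for Scnn1a, 0.417 for Scnn1b, 0.261 for Slc12a2, 0.136 for Cftr, 0.105 for Nr3c2 and -0.538 for Slc9a3.

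Within each route Atp12a had r between 0.912 (IV) and 0.977 (IP), Fxyd4 between 0.748 (IV) and 0.866 (IP), Scnn1g between 0.635 (IV) and 0.776 (IP), and Slc9a3 between -0.566 (IP) and -0.512 (IV). Scnn1b had r = 0.361 in PO, 0.605 in IP and 0.336 in IV (permutation p = 0.0626, 0.00167 and 0.0895), and Scnn1a 0.507, 0.797 and 0.367 (permutation p = 0.00437, 3e-05 and 0.0759). In the 15 PBS libraries alone r was 0.95 for Atp12a, 0.907 for Fxyd4, 0.893 for Scnn1g and -0.4 for Slc9a3 (permutation p = 1e-05, 0.00013, 0.00036 and 0.163). In the 85 libraries of the main run r was 0.952 for Atp12a, 0.837 for Fxyd4, 0.698 for Scnn1g, 0.43 for Scnn1b, 0.616 for Scnn1a, 0.72 for Slc26a3 and -0.522 for Slc9a3. In the 12 that follow it, taken without subtracting group means, r was 0.902 for Atp12a, 0.795 for Fxyd4, 0.482 for Scnn1g, 0.208 for Scnn1b, 0.342 for Scnn1a, 0.372 for Slc26a3 and -0.572 for Slc9a3 (permutation p = 0.00038, 0.00382, 0.114, 0.51, 0.268, 0.226 and 0.0547). The labels do not name these 12 libraries as a batch.

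The epithelium score, used as a second coordinate, put other members first. Against it 76% of all tested genes had a called slope, so a call alone says little. Nr3c2 (r = 0.888, rho = 0.849) and Cftr (r = 0.81, rho = 0.747), without a called slope on the Hox score, followed it most closely, and Scnn1b followed at r = 0.669 and rho = 0.675 (permutation p = 1e-05 for all 6 values). The relation was weakest for Fxyd4 (r = 0.238, rho = 0.2, permutation p = 0.0399 and 0.069) and Atp12a (r = 0.107, rho = 0.0878, permutation p = 0.36 and 0.429). Without the 2 libraries farthest from the median epithelium score r was 0.869 for Nr3c2, 0.771 for Cftr, 0.641 for Scnn1b, 0.197 for Fxyd4 and 0.0638 for Atp12a. With the epithelium score held constant, the Hox correlation was 0.964 for Atp12a, 0.799 for Scnn1g, 0.769 for Scnn1a, 0.751 for Slc26a3, 0.674 for Scnn1b and -0.59 for Slc9a3. In that fit Nr3c2 and Cftr also rose with the Hox score, by 0.09 ± 0.0241 and 0.14 ± 0.038 log2 units (limma adjusted p = 0.000854 and 0.000893).

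**Figure D2:**
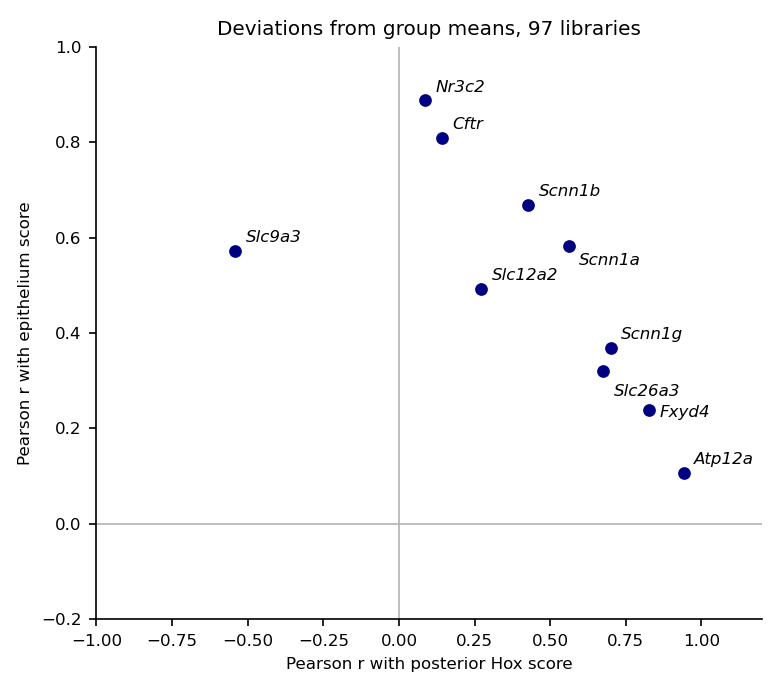
Each of the 10 members is placed by its Pearson correlation with the posterior Hox score (x axis) and with the epithelium score (y axis), both from deviations from group means over 97 libraries. Atp12a and Fxyd4 lie at high Hox and low epithelium correlation, Nr3c2 and Cftr at the opposite corner, and Slc9a3 alone has a negative Hox correlation (-0.541).

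What the members shared beyond these coordinates was read with group, Hox score and epithelium score all held constant. The beta and gamma subunits of ENaC moved together: Scnn1b and Scnn1g had r = 0.9 before the scores were held and 0.916 after (rho = 0.881 and 0.914, permutation p = 1e-05 for each of the 4 values). Fxyd4 went with both, at r = 0.736 (rho = 0.705) with Scnn1b and r = 0.74 (rho = 0.709) with Scnn1g (permutation p = 1e-05 for all 4 values). Nr3c2 had r = 0.394 with Scnn1b and 0.428 with Scnn1g (rho = 0.376 and 0.368, permutation p = 0.00038 and 9e-05 for r). For the alpha subunit no such relation was found. Scnn1a had r = -0.141 with Scnn1b and -0.0192 with Scnn1g (rho = -0.104 and -0.0421, permutation p = 0.245 and 0.873 for r), where the correlations before the scores were held had been 0.663 and 0.674. As background, aldosterone is known to raise beta and gamma mRNA in the colon, while alpha is made without it. The 45 pairs of members were all computed.

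The slope of every tested gene on Scnn1b was taken with group, Hox score and epithelium score held, and members and pathway genes are given from it. In that fit 39.6% of 17082 genes had a called slope, so the order and direction carry more than the calls. Of the 9 other members 4 rose with Scnn1b and 2 fell. Fxyd4 rose by 1.47 ± 0.151 log2 units per log2 unit of Scnn1b and Scnn1g by 1.18 ± 0.0585 (slope ± SE, limma adjusted p = 8.87e-12 and 8.09e-29), with smaller slopes for Atp12a (0.318 ± 0.118, limma adjusted p = 0.0251) and Nr3c2 (0.177 ± 0.0469, limma adjusted p = 0.00143). Slc9a3 had a slope of -0.483 ± 0.118 and Slc26a3 of -0.212, with both scores held (limma adjusted p = 0.000558 and 0.0252). Before the scores were held, the correlation of Scnn1b was 0.471 with Slc26a3 and -0.0107 with Slc9a3 (rho = 0.479 and 0.0307, permutation p = 4e-05 and 0.932 for r), so these signs belong to the fit with the scores. Scnn1a, Cftr and Slc12a2 were not called.

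The counts of pathway genes on Scnn1b are read against the 39.6% of all tested genes called in either direction, and are no result about the pathway. Among 18 aldosterone and ENaC regulators 3 rose and 2 fell with Scnn1b. Hsd11b2, the enzyme that shields the mineralocorticoid receptor from glucocorticoid, rose by 0.515 ± 0.0576 (limma adjusted p = 1.37e-10). The ubiquitin ligase Nedd4l, which removes ENaC from the membrane, had a slope of -0.151 (limma adjusted p = 9.15e-06). The kinase Sgk1, an early aldosterone target, was not called (slope 0.0764, limma adjusted p = 0.561). Of 12 sodium pump and exchanger genes 3 rose and 3 fell. Of 17 anion transport genes 6 rose and 3 fell, among them Best2, a bicarbonate channel of goblet cells, with 0.865 ± 0.0891 (limma adjusted p = 8.87e-12). Of 8 potassium channels none rose and 1 fell. Of 10 secretagogue and guanylin genes 1 rose and 3 fell, and Guca2a, which encodes guanylin, had a slope of -0.427 (limma adjusted p = 4.75e-06). Nedd4l and Best2 were singled out after their values were seen.

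The other absorptive and secretory members formed separate pairings. With the scores held Slc9a3 had r = 0.459 with Slc26a3 (rho = 0.496, permutation p = 0.00011 and 1e-05) and 0.493 with Scnn1a (rho = 0.544, permutation p = 1e-05 for both), and r = -0.417 with Scnn1b (rho = -0.342, permutation p = 0.00032 and 0.00217). On Slc9a3 itself, with both scores held, 21.6% of genes had a called slope. Slc26a3, Atp12a and Scnn1a rose by 0.29, 0.289 and 0.284, and Scnn1b, Scnn1g and Fxyd4 had slopes of -0.36, -0.395 and -0.689 (limma adjusted p from 0.000227 to 0.0314). Before the scores were held, the correlation of Slc9a3 was -0.349 with Atp12a, 0.0288 with Slc26a3 and 0.2 with Scnn1a (permutation p = 0.00191, 0.815 and 0.102). It was -0.0107 with Scnn1b, -0.28 with Scnn1g and -0.399 with Fxyd4 (permutation p = 0.932, 0.0218 and 0.00054). The 3 rises thus belong to the fit with the scores. Slc12a2 and Cftr, the entry and exit of secreted chloride, had r = 0.718 before and 0.56 after the scores were held (rho = 0.745 and 0.571, permutation p = 1e-05 for all 4 values). On Cftr 6.74% of genes had a called slope, and of the 9 other members Slc12a2 alone did (0.394 ± 0.0662, limma adjusted p = 9e-06). With the scores held, leaving out the 2 libraries farthest from the median of the gene named first gave 0.905 for Scnn1b with Scnn1g, 0.755 for Scnn1g with Fxyd4, 0.468 for Slc9a3 with Slc26a3, 0.537 for Cftr with Slc12a2 and -0.323 for Scnn1b with Slc9a3.

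**Figure D3:**
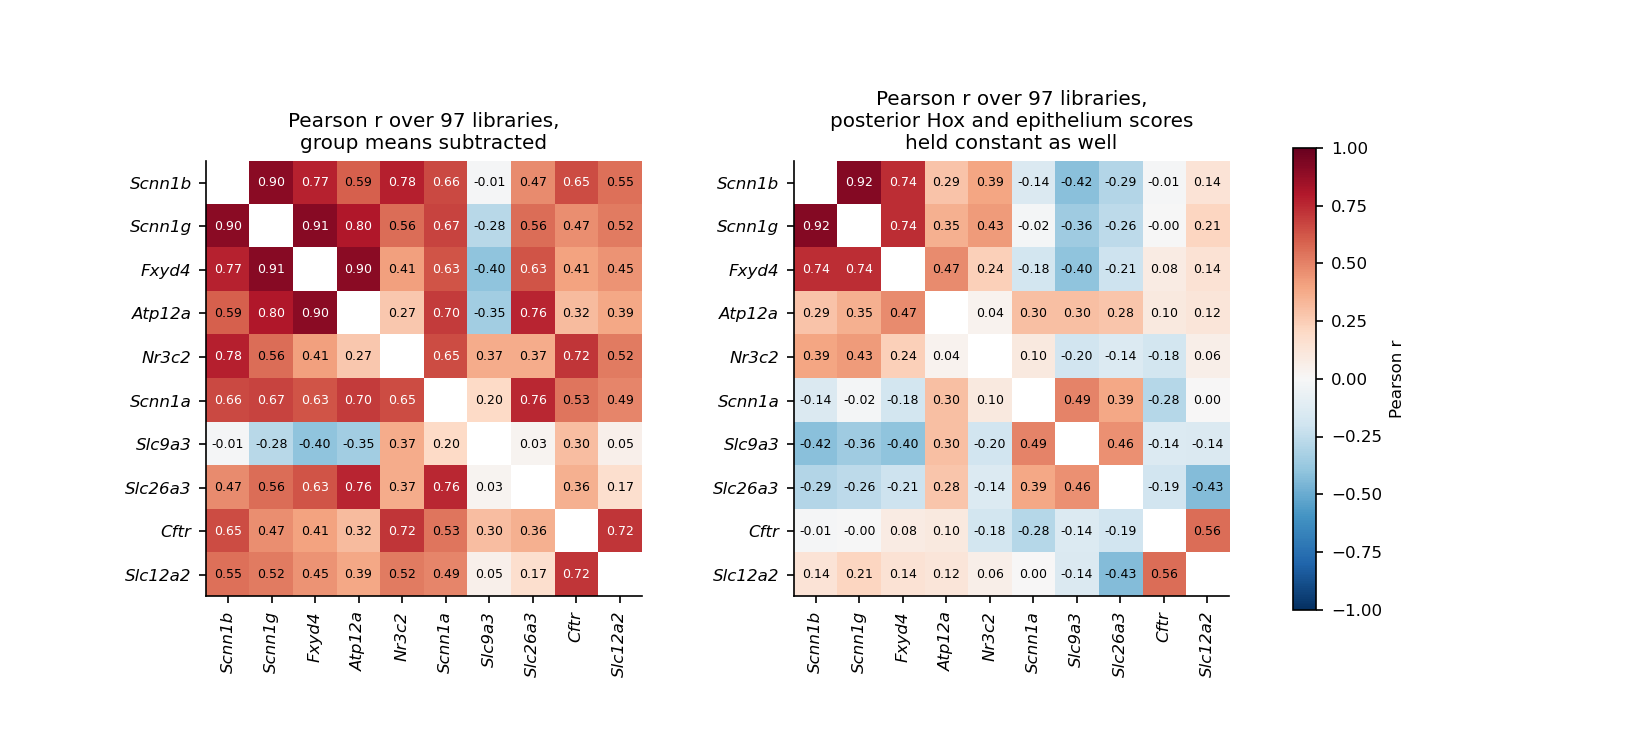
Heat maps of the Pearson correlation between members over 97 libraries, with group means subtracted (left) and with the Hox and epithelium scores also held (right). The block of Scnn1b, Scnn1g and Fxyd4 stays at 0.736 or more on the right, where Scnn1a leaves it.

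Genes with the pattern most like each member were ranked by Pearson r over the 97 libraries among 11788 genes with a median of at least 5 TPM, as a description. For Scnn1b they were Frrs1 (0.928), Ebp (0.914) and Aldh2 (0.912), and for Scnn1g Fut4 (0.907), Slc36a1 (0.901) and Scnn1b (0.9). For Scnn1a they were Slc6a8 (0.913), Tmprss2 (0.906) and Clic5 (0.906), and for Fxyd4 AI854703 (0.936) and Slc37a2 (0.921). Fxyd4 itself, with a median of 3.03 TPM, was too low to be ranked, and its r with Scnn1g was 0.913. Atp12a was most like Ly6g (0.976), Tgm3 (0.973) and Hoxb13 (0.973), the last of which is part of the Hox score. Slc9a3 was most like Dpep1 (0.892), Guca2a (0.849) and Cdx2 (0.819). Cdx2 is part of the epithelium score and itself had a slope of -0.654 on the Hox score (limma adjusted p = 6.98e-18). Slc26a3 was most like Slc15a1 (0.862), Trpv3 (0.857) and Nt5e (0.852). Nr3c2 was most like Naip2 (0.963), Pip5k1b (0.956) and Cd2ap (0.956), Cftr like Noxa1 (0.947), Gjb1 (0.94) and Ugt2b35 (0.926), and Slc12a2 like Tlcd3a (0.857), Txndc5 (0.837) and Pdia5 (0.837).

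On the Hox score 25.2% of all tested genes had a called slope above 0 and 22.7% one below 0, which is the background of the counts that follow. Of 18 aldosterone and ENaC regulators 3 rose and 8 fell, of 12 pump and exchanger genes 2 rose and 5 fell, of 17 anion transport genes 5 rose and 6 fell, and of 8 potassium channels 2 rose and 1 fell. Of 10 secretagogue and guanylin genes none rose and 5 fell, with a median slope of -0.161 where the median of all tested genes was -0.00108. Guca2a had a slope of -0.52, and Hsd11b2 rose by 0.26 (limma adjusted p = 0.0283). Sgk1 was not called (slope -0.05, limma adjusted p = 0.516).

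Against PBS, the antibiotics left nearly all members uncalled. Of 150 tests (10 members in 15 comparisons) 1 passed, the fall of Nr3c2 in Vancomycin-IP. Nr3c2 stood at 123, 79.9, 78.9 and 96.1 TPM in PBS-IP and at 22.7, 24.5, 21.4 and 43.3 TPM in Vancomycin-IP. The groups did not overlap. The fold was 0.296 (95% interval 0.133 to 0.661, log2 fold change -1.75 ± 0.582 SE, limma adjusted p = 0.0307), in a comparison where 19% of all tested genes were called. The call was lost when any of 5 libraries was left out: PBS-IP replicate 1 (limma adjusted p = 0.0825) or 4 (0.0565), or Vancomycin-IP replicate 1 (0.0783), 2 (0.0882) or 3 (0.068).

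The other 9 members of Vancomycin-IP also had log2 fold changes below 0, none of them called, and the median of the 10 was -1.87 against 0.11 for all tested genes. Scnn1b stood at 17.2, 15.3, 5.54 and 13.2 TPM in PBS-IP and at 1.12, 0.525, 1.43 and 2.89 TPM in Vancomycin-IP, with no overlap (log2 fold change -2.45, limma adjusted p = 0.0665). Scnn1g went from 15.1, 13.6, 0.532 and 11.7 TPM to 0, 0.0468, 0.258 and 0.513 TPM (-2.79, limma adjusted p = 0.0943). Slc9a3 went from 182, 205, 459 and 214 TPM to 123, 67.1, 24.3 and 38.6 TPM (-2.20, limma adjusted p = 0.0853). Cftr went from 106, 85.0, 58.7 and 79.2 TPM to 28.3, 5.77, 39.6 and 56.6 TPM (-1.64, limma adjusted p = 0.087). The PBS-IP and Vancomycin-IP values of these 4 genes did not overlap, by a small margin for Scnn1g (0.532 against 0.513 TPM) and Cftr (58.7 against 56.6 TPM). The share of all tested genes without overlap was not counted, and 6421 of 17083 had an unadjusted p under 0.05 in limma. The separation of these 4 genes and of Nr3c2 is therefore no result by itself. Fxyd4, Atp12a, Slc26a3, Scnn1a and Slc12a2 had limma adjusted p from 0.184 to 0.641.

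The makeup of the Vancomycin-IP libraries moved with these values. Their epithelium score was 8.07 ± 0.676 against 9.47 ± 0.17 in PBS-IP (mean ± SD, n = 4 each), and their smooth muscle score was 11.2 ± 0.347 against 8.98 ± 0.458. Each difference had an exact permutation p = 0.0286, the smallest that 4 against 4 allows, and 0.551 after adjustment over 45 tests. The Hox score was 4.01 ± 1.43 against 4.2 ± 1.89. Of 14 smooth muscle markers 12 rose, of 8 fibroblast markers 5 rose and of 11 neuron and glia markers 5 rose, while 1 of 13 epithelial and 4 of 10 goblet markers fell. With the epithelium score as a covariate the Nr3c2 difference was -0.62 (limma adjusted p = 0.244), and with the Hox and smooth muscle scores -0.46 (limma adjusted p = 0.82). Without the 12 libraries after the main run, which include 3 of the 4 of Vancomycin-IP and 2 of the 4 of PBS-IP, it was -2.08 (limma adjusted p = 0.292).

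Averaged over the routes, vancomycin again called Nr3c2 alone of the members (1 of 50 tests over 5 antibiotics), with a fold of 0.498 (95% interval 0.327 to 0.757, log2 fold change -1.01 ± 0.304 SE, limma adjusted p = 0.0126), where 26% of all tested genes were called. In PBS-PO the lowest, median and highest levels of Nr3c2 were 34.4, 69.0 and 149 TPM and in Vancomycin-PO 15.7, 47.5 and 114 TPM. In PBS-IV they were 12.5, 63.3 and 92.8 TPM and in Vancomycin-IV 19.2, 22.3 and 93.0 TPM. These groups overlapped, and neither route was called by itself (log2 fold changes -0.73 and -0.54, limma adjusted p = 0.962 and 0.683). With the epithelium score as a covariate the averaged difference was -0.43 (limma adjusted p = 0.04), in a fit that called 1837 of all tested genes. It was -0.29 with the Hox and smooth muscle scores (limma adjusted p = 0.476) and -1.29 without the 12 libraries (limma adjusted p = 0.0682). Over the routes 13 of 14 smooth muscle markers rose, where 3177 of all tested genes were called higher and 1264 lower.

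No member was called in the other comparisons, most of which called few genes of any kind. The share of all tested genes called was 0.0702% in Ampicillin-PO, 0.492% in Ampicillin-IP, 0.082% in Ampicillin-IV, 0% in each of Metronidazole-PO, Metronidazole-IP and Metronidazole-IV, 0.0176% in Neomycin-PO, 0.603% in Neomycin-IP and 0.544% in Neomycin-IV. It was 0.176% in Vancomycin-PO, 0.258% in Vancomycin-IV, 0.252% in Mix-PO, 0.275% in Mix-IP and 0% in Mix-IV. At an unadjusted p under 0.05 the 3 metronidazole comparisons had 555, 1221 and 252 genes in limma, and Mix-IV had 956. Averaged over routes the share was 7.88% for ampicillin, 0.398% for metronidazole, 2.34% for neomycin and 7.96% for the mix, again without a member. With the Hox and smooth muscle scores as covariates Atp12a was called higher for ampicillin (1.00, limma adjusted p = 0.0349) and neomycin (1.05, limma adjusted p = 0.0385). With the Hox and epithelium scores it was called again for both (0.96 and 0.94, limma adjusted p = 0.0219 and 0.0407). The first fit called 2212 and 1236 of all tested genes and the second 2543 and 1460, against 1346 and 400 without covariates. The calls of Atp12a are read against these counts. Without covariates its log2 fold changes were 0.23 and 1.45 (limma adjusted p = 0.914 and 0.791). The members with an unadjusted p under 0.05 outside vancomycin were Nr3c2 and Cftr in Ampicillin-PO (log2 fold changes -0.95 and -1.25, limma adjusted p = 0.314 and 0.313), Slc12a2 in Ampicillin-IP (-0.68, 0.419) and Slc9a3 in Metronidazole-IP (-1.91, 0.579). In Ampicillin-PO the epithelium score was 8.37 ± 1.12 against 9.35 ± 0.609 in PBS-PO and the smooth muscle score 10.8 ± 0.81 against 9.6 ± 0.922 (mean ± SD, n = 6 each, exact permutation p = 0.0693 and 0.0433, 0.551 for both adjusted over 45 tests), and the part of these shifts in the 2 genes was not tested. The intervals of the genes with wide ranges were wide: in Vancomycin-IP that of the Atp12a fold ran from 0.0113 to 5.73.

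**Figure D4:**
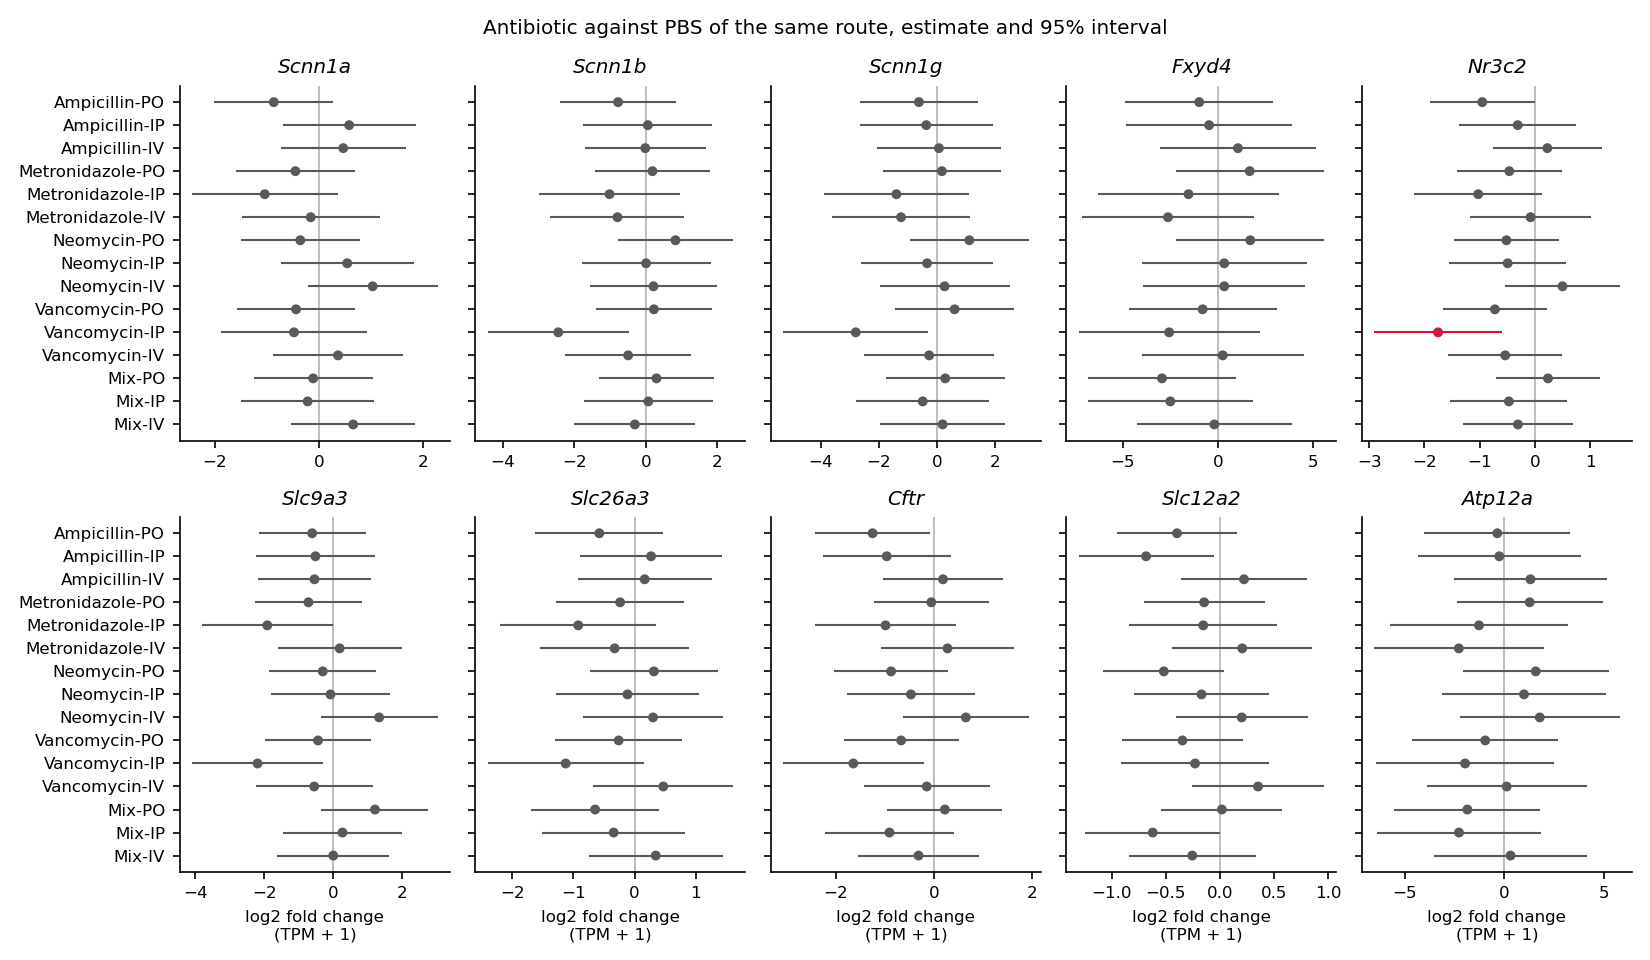
Log2 fold changes (x axis, on log2(TPM + 1), bars are 95% intervals) of the 10 members in the 15 comparisons with PBS of the same route; red marks an adjusted p under 0.05, and the x axes differ in scale between panels. Nr3c2 in Vancomycin-IP (-1.75) is the only red point, and the intervals of Atp12a and Fxyd4 are the widest.

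Whether an antibiotic acted unequally over the 3 routes was tested for each member, and none of 60 tests passed (limma adjusted p from 0.632 to 1), PBS groups included. The share of all tested genes called was 0.0878% for neomycin and 0% for the other 4 treatments and for PBS.

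Among the pathway genes the repeated call was Usp2, a deubiquitinase that acts on ENaC regulation. Usp2 fell from 75.6 ± 31.8 to 20.6 ± 5.61 TPM in Ampicillin-PO (mean ± SD, n = 6 each, limma adjusted p = 0.0056) and to 22.1 ± 3.55 TPM in Vancomycin-PO (n = 6, limma adjusted p = 0.0171). It fell from 61.9 ± 6.94 to 22.04 ± 4.65 TPM in Vancomycin-IP (n = 4 each, limma adjusted p = 0.0191) and from 85.9 ± 43.0 to 26.9 ± 13.6 TPM in Ampicillin-IV (n = 5 and 6, limma adjusted p = 0.0362). Comparisons of the same route share their PBS libraries. In Mix-PO the steroid-induced chaperone Fkbp5 rose from 85.1 ± 28.8 to 409 ± 157 TPM and Cnksr3, a scaffold of ENaC regulation, from 28.4 ± 8.92 to 55.1 ± 9.97 TPM (n = 6 each, limma adjusted p = 0.0237 and 0.0209). In all 2 of 18 regulators rose there, where 0.252% of all tested genes were called in either direction. The Hox score was 2.08 ± 1.15 in Mix-PO and 3.84 ± 1.86 in PBS-PO (mean ± SD, n = 6 each, exact permutation p = 0.0844, 0.551 adjusted over 45 tests), and the slopes of Fkbp5 and Cnksr3 on that score were -0.31 and -0.15. Its part in these results was not tested. Over the routes the mix raised 5 of 18 regulators, where 7.96% of all tested genes were called in either direction. Among the 5, Fkbp5, Cnksr3, Per1 and Furin rose by 1.58, 0.69, 0.68 and 0.36 log2 units, while Sgk1 was at 0.91 (limma adjusted p = 0.0686) and Hsd11b2 at 0.31 (0.802). The list was chosen with earlier results of these data known, so these counts are no result about the pathway.

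In Vancomycin-IP, where library makeup differed as given above and 19% of all tested genes were called, 4 of 18 regulators rose and 1 fell, with Wnk1, Furin and Nedd4l up by 1.14, 0.69 and 0.64 log2 units. Of 17 anion transport genes 2 fell: carbonic anhydrase Car2 from 971 to 192 TPM (log2 fold change -2.87, limma adjusted p = 0.0296) and the sulfate exchanger Slc26a2 (-1.64, limma adjusted p = 0.0422). Of 12 pump and exchanger genes 2 rose (Atp1b3 and Nherf2), of 8 potassium channels 1 rose (Kcnma1, by 1.89), and of 10 secretagogue genes Chrm3 rose by 1.84 and Adcy6 fell by 1.60. Hsd11b2, Guca2a and Sgk1 were at -2.59, -1.45 and -0.76 (limma adjusted p = 0.0788, 0.261 and 0.395). Over the routes vancomycin called 26% of all tested genes, and among them 3 of 12 pump and exchanger genes lower, among them Atp1b1 (-0.82, limma adjusted p = 0.0407), and 1 higher, and 4 of 17 anion transport genes lower, among them Car1 (-2.21) and Car2 (-1.63). The shares of these lists called in Vancomycin-IP and over the routes for vancomycin are read against those of all tested genes and are no result about the pathway. Ampicillin over the routes, with 7.88% of all tested genes called, called 4 of 18 regulators higher and 1 lower, Usp2 (-1.40, limma adjusted p = 3.41e-06), and 2 of 8 potassium channels lower, Kcne3 (-1.33) and Kcnn4 (-1.13). The part of library makeup in these results was not tested gene by gene.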

How the data were processed

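RNA-seq of whole colon was read from 1 table of TPM values that the authors deposited. Per the submitters' processing notes, Trim Galore 0.6.2, cutadapt 3.5, Salmon and GRCm39 were used; whether counting used strand is not given in the sources used here. TPM holds no read totals, and sequencing depth is therefore unknown; 18247 to 19884 genes were above 0, and mitochondrial genes took 3.52% to 27.5% of TPM. Genes at 1 TPM or more in at least 4 libraries were tested on log2(TPM + 1) with limma 3.58.1 (trend and robust, R 4.3.3) over 18 group means, with Benjamini-Hochberg adjustment over 17083 genes and calls at adjusted p under 0.05. Group tests, slopes and route tests came from that model, and correlations used 100000 two-sided permutations within groups (scipy 1.17.1). Members and lists were chosen with earlier results of these data known. Named genes were the 10 members, up to 4 called genes per pathway list and comparison by size of change, Sgk1, Hsd11b2 and Guca2a throughout, and the 3 genes most like each member; some genes the rule names are not reported here. Alternatives were other pseudocounts, filters, scalings, covariates, array weights, fits of 2 groups, a replicate block and left-out libraries. Scripts were tested on simulated data.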

Additional observations from a re-analysis of the deposited data

Results flagged for a closer look

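In groups of 4 to 6 libraries, 20 of 180 group and gene combinations had 1 library far from the rest by Dixon's criterion, where chance gives about 9. In Mix-PO, replicate 6 (Hox score 3.78) had Scnn1a at 183 TPM (others 39.6 to 68.0), Slc9a3 at 910 (294 to 428) and Fxyd4 at 6.91 (0.383 to 0.93). In PBS-IP, replicate 3 (Hox score 1.36) had Scnn1a at 26.4 TPM (63.9 to 75.7), Scnn1g at 0.532 (11.7 to 15.1) and Atp12a at 2.08 (360 to 412). In Mix-IP, replicate 6 (Hox score 6.02) had Scnn1b at 97.6 TPM (5.81 to 14.1), Scnn1g at 161 (1.03 to 5.31) and Slc9a3 at 27.4 (389 to 630). In Vancomycin-IV, replicate 1 (Hox score 4.20) had Scnn1b at 52.1 TPM (0.89 to 2.64) and Scnn1g at 30.6 (0.0484 to 1.63). Scnn1b stood at 58.2 TPM in Mix-IV replicate 3 (0.837 to 5.02), and Scnn1g at 18.8 TPM in Ampicillin-PO replicate 1 (0 to 1.25) and at 135 in Vancomycin-PO replicate 6 (0.439 to 4.59). In PBS-IV, replicate 4 (epithelium score 5.76) had Nr3c2 at 12.5 TPM (54.9 to 92.8), Slc9a3 at 13.9 (184 to 432) and Cftr at 2.14 (36.7 to 80.6). Cftr stood at 74.8 TPM in Neomycin-IP replicate 2 (53.9 to 57.4) and at 4.53 in Ampicillin-IV replicate 3 (28.7 to 60.8), and Slc12a2 at 54.2 TPM in Ampicillin-IP replicate 6 (170 to 226).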

How the results depend on the processing

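The number of members called against PBS of the same route, 1 of 150, became 4 with the Hox score as a covariate, 0 with the Hox and smooth muscle scores, 0 with the epithelium score, 0 with the Hox and epithelium scores (chosen after seeing the data), 16 with array weights, 0 without the 12 libraries after the main run and 5 in fits of the 2 groups alone; leaving out 1 library gave 0 to 2. The number called over the routes, 1 of 50, became 2 with the Hox score, 3 with the Hox and smooth muscle scores (Atp12a higher for ampicillin and neomycin, Scnn1g higher for the mix, by 0.96), 3 with the Hox and epithelium scores (the same Atp12a calls and Nr3c2), 12 with array weights and 0 without the 12 libraries; leaving out 1 library gave 1 to 3, with 3 without PBS-IV replicate 4 and 2 without Vancomycin-IV replicate 1 or Vancomycin-PO replicate 1. In Vancomycin-IP the main fit called 3252 of 17083 genes. The Hox score as a covariate gave 4049, the fit of the 2 groups alone 5266 and array weights 9897. Array weights called 6264 genes in Mix-IP. For vancomycin over the routes the main fit called 4441 genes, the Hox score gave 5304 and array weights 9866. These member counts are therefore no result about the members. Unequal effects over routes, 0 of 60, became 2 with array weights, which called 2977 genes for vancomycin. Leaving out 1 library gave 0 to 0. Past the threshold adjusted over the 10 relations, 8 of 10 members were related to the Hox score, 2 in the 12 libraries alone (chosen after seeing the data) 6 in route PO alone and 5 in route IV alone; leaving out 1 library gave 7 to 8. The causes were not tested. Of 160 alternative correlations 141 kept their side of the threshold. None that passed it in either setting changed direction, and a change of sign was not counted where neither value passed. Of 177 alternative fold changes 153 kept direction and side of the threshold, and none reversed. Replicate numbers were not used to pair the samples. The mean correlation of same-numbered deviations was 0.061, -0.0368 and -0.00113 by PO, IP and IV, against -0.0122, 0.0111 and -0.000142 for other numbers. By route 11 of 36, 4 of 30 and 3 of 31 libraries were closest to their own number, and whether the number marks a pairing in PO was not tested. With a replicate block Nr3c2 had a log2 fold change of -1.75 in Vancomycin-IP (limma adjusted p = 0.0293) and -1.01 over the routes (limma adjusted p = 0.0124). Depth is unknown, so values under 1 TPM have no stated precision.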
